A study of Mus musculus with 7 samples.

Results

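Injured muscle stem cells (MuSCs) were set against the myogenic cells found in a suspension of total muscle. MuSCs, also called satellite cells, are the resident stem cells of skeletal muscle. The comparison took 3133 cells out of 7964 cell barcodes in 4 libraries, in a series of 15474 barcodes in 7 libraries. Injured cells numbered 1164 and 1802 in the 2 injured libraries, and total muscle myogenic cells numbered 69 and 98 in the 2 total muscle libraries. A cell was kept with at least 200 detected genes, at most 10% of its unique molecular identifiers (UMIs, one per captured RNA molecule) from mitochondrially encoded genes, and 0 UMIs of Ptprc (immune), Pecam1 (endothelial), Tnmd (tendon) and Pdgfra (fibro-adipogenic). An injured cell needed at least 1 UMI summed over Cdh15, Des, Myf5, Myod1 and Myog. A total muscle cell needed at least 3 UMIs summed over Myf5, Myod1, Cdh15, Chrdl2, Msc and Fgfr4. UMIs of the chosen cells were then summed per library, so that the libraries and not the cells were compared.

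The injured libraries were labelled as C56BL/6J MuSCs sorted by FACS from TE-EDL muscles 60 h after injury with the toxin notexin (2 µM). Notexin is a snake venom phospholipase that destroys muscle fibres. The total muscle libraries held live cells sorted from digested hindlimb muscles of wild-type C56BL/6J mice aged 3 months, with no injury named. The age of the injured mice was not given in the labels, and no label named separate animals for the 2 libraries of a group, so that p-values measure the spread between libraries, which may be technical. The groups therefore differed in injury, in the muscles taken, in the sort and in the genes that chose the cells, and these cannot be told apart. Homeostatic MuSCs, FACS-sorted C56BL/6J cells with no injury named (1357 and 1204 cells by the rule of the injured libraries), are given beside the comparison as a sorted, uninjured group.

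In resting muscle, MuSCs are out of the cell cycle and lie between the fibre and its basal lamina, held there by adhesion molecules and matrix. After damage they enter the cell cycle as myoblasts, express Myf5 and Myod1, and later turn on Myog and the genes of the contractile apparatus before they fuse into new fibres. Tissue digestion itself is known to induce immediate-early and heat shock genes in muscle cells.

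The chosen cells held 8673509 and 6242202 UMIs in the injured libraries and 261025 and 365716 UMIs in total muscle. Median UMIs per cell were 7375 and 3287 in injured cells and 3582 and 3515 in total muscle cells. The injured libraries shared 253 cell barcodes, against 1 to 9 in any other pair of the 6 libraries. Of these, 237 were among the chosen cells of injured library 1, where they held 25.9% of the UMIs, and 128 among those of injured library 2 with 4.31%. The origin of the shared barcodes was not tested. Without them Rps19, a ribosomal protein gene, was the 1 of 135 named genes that lost its call, P2ry14, a nucleotide receptor gene, was at a log2 of -10.07 in place of -9.07, and 15 differentiation genes were higher in place of 12, 37 ribosomal protein genes in place of 41 and 3 translation factor genes in place of 5. A few chosen cells carried over 1% of their UMIs from markers of another cell type, 3 and 8 in the injured libraries and 3 and 3 in total muscle. In total muscle library 1, 3 cells held 70.1% of the fibro-adipogenic marker UMIs, and in library 2 a single cell held 80.9% of the myofibre marker UMIs. Counts for the lists these cells move are also given without them. The matrices of both injured libraries list genes within a cell in descending order and those of the other 4 in ascending order, and processed pseudogenes took 1.70% and 1.99% of the chosen cells' UMIs in injured MuSCs against 0.415% and 0.375% in total muscle. Whether the libraries were processed alike upstream was not tested.

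The genes that chose the cells are described and not tested. Myod1, the myogenic determination factor, stood at 272 and 308 CPM in injured MuSCs and 2221 and 3282 CPM in total muscle cells, where CPM is the usual depth-scaled count, here after TMM scaling of the libraries. Myog, the regulator that starts terminal differentiation, stood at 152 and 243 CPM in injured MuSCs and had 0 UMIs in both total muscle libraries. Myf5, the early determination factor, was at 263 and 438 CPM in injured MuSCs and 182 and 212 CPM in total muscle. Des, the muscle intermediate filament desmin, was at 309.6 and 316 CPM in injured MuSCs and 825 and 838 CPM in total muscle. Cdh15, the M-cadherin of satellite cells, was at 39.8 and 50.3 CPM in injured MuSCs and 40.4 and 61.9 CPM in total muscle. The 4 marker genes of the label were thus detected in all 4 libraries. Chrdl2, a satellite cell marker, had 1 UMI in injured MuSCs and 155 UMIs in total muscle, which was chosen on it. Msc, a repressor of myogenic factors, was at 6.26 and 4.08 CPM in injured MuSCs and 188 and 183 CPM in total muscle, and the growth factor receptor gene Fgfr4 was at 13.5 and 12.1 CPM in injured MuSCs and 30.3 and 47.6 CPM in total muscle. At the threshold of 1 UMI, 94 and 412 injured cells had 72.4 and 90.2 CPM, here without TMM scaling, of the fibroblast genes Col1a1, Dcn and Col3a1 summed, and the 56 and 379 cells just below it had 449.9 and 328 CPM. At the threshold of 3 UMIs, 11 and 6 total muscle cells had 7572 and 673 CPM of those genes, and the 10 and 12 cells just below it had 13682 and 5477 CPM.

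Most tested genes of DNA replication, mitosis, oxidative phosphorylation and chromatin or splicing were higher in injured MuSCs than in total muscle myogenic cells, and most tested stress-induced, antigen presentation, matrix and quiescence-linked genes were lower. Of 9447 genes tested with edgeR's quasi-likelihood test at a Benjamini-Hochberg adjusted p under 0.05, 2979 were higher in injured MuSCs (31.5%) and 2028 were lower (21.5%), which is 53% in either direction. DESeq2 called 2384 genes higher (25.2%) and 1938 lower (20.5%), which is 45.7% in either direction. Both injured libraries lay above both total muscle libraries in 47.6% of tested genes and below both in 32.1%. Counts within a list are read against these shares. In such sums, fewer cells of a type and less RNA per cell cannot be told apart. The median log2 fold change over all tested genes was 0.35, and library scaling moved it by 0.41. Without that scaling 2092 genes were higher (22.1%) and 2678 lower (28.3%), so the share of higher genes among those called was 59.5% with scaling and 43.9% without it. Among the higher genes, 522 had no UMI in total muscle and 602 had 1 to 3. Values in parentheses with ± are log2 fold changes with their SE from that fit, injured MuSCs over total muscle, with 2 libraries in each group. Fitted fold changes of genes without a total muscle UMI are not measured sizes, and folds against 0 are given as lower limits that set total muscle at 3 counts over the group (4.18 CPM).

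**Figure D1:**
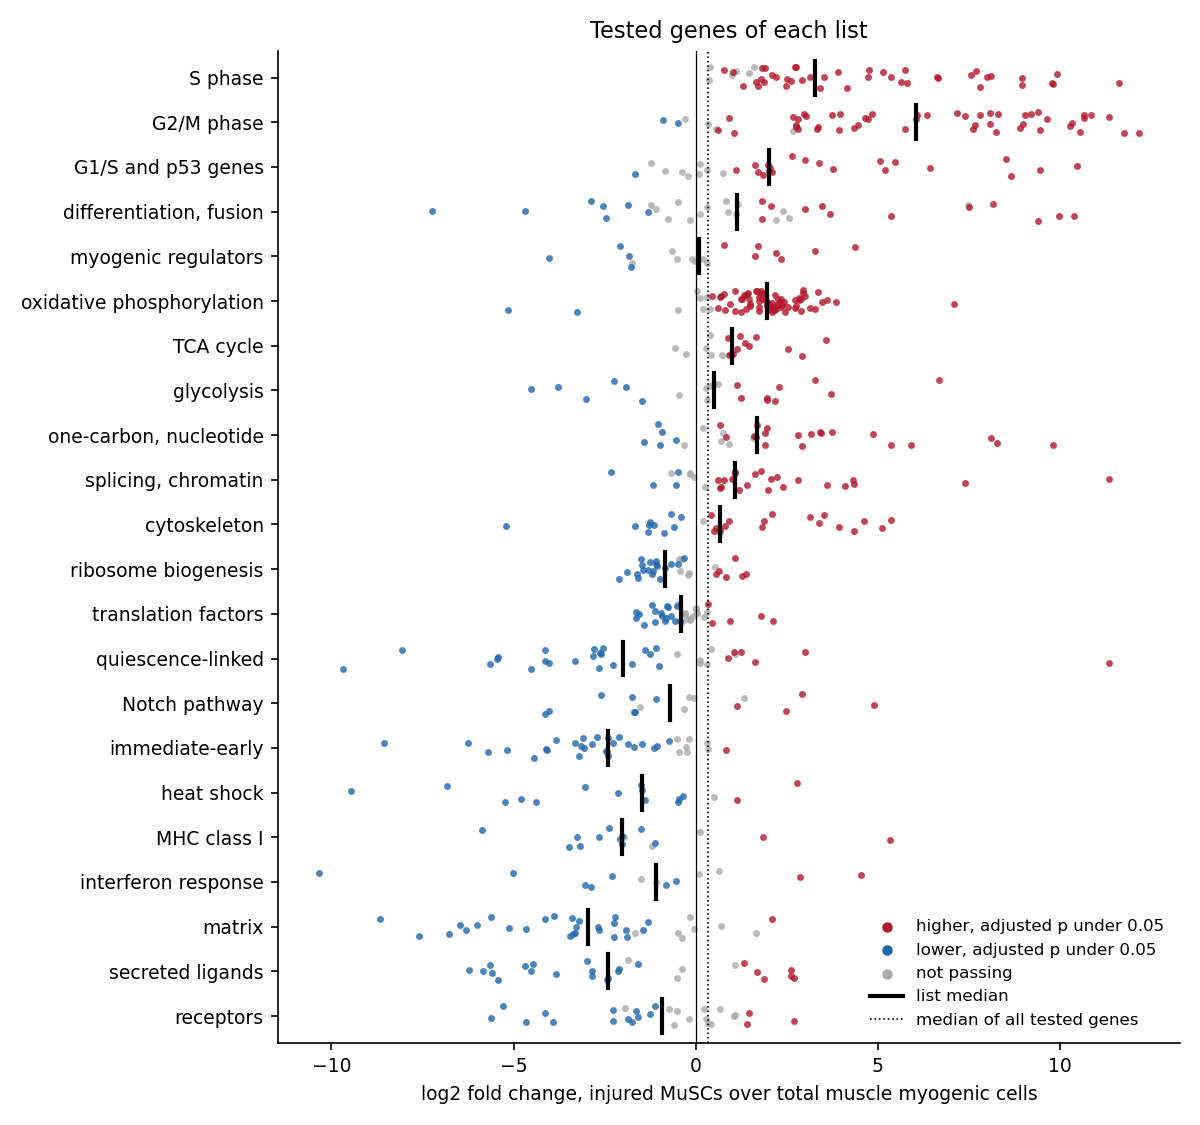
Log2 fold change of every tested gene of the named gene lists, injured MuSCs over total muscle myogenic cells (x axis, log2 from the edgeR fit), with 1 point a gene, coloured by call, the list median as a bar and the median of all tested genes (0.35) as a dotted line. S phase, G2/M and oxidative phosphorylation genes lie mostly to the right, with medians of 3.27, 6.05 and 1.94, and immediate-early, MHC class I and matrix genes mostly to the left, with medians of -2.42, -2.02 and -2.95. With genes without a total muscle UMI set at their lower limit, the S phase and G2/M medians were 2.49 and 2.96.

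Genes of the cell cycle rose in injured MuSCs. Of 48 S phase genes, all tested, 42 were higher in injured MuSCs and none was lower. Of 56 G2/M genes, 55 were tested, 49 were higher and 2 were lower, Tubb4b, a tubulin (-0.50 ± 0.20), and Hjurp, a centromere chaperone (-0.89 ± 0.33). DESeq2 called 46 of the G2/M genes higher and 0 lower. Over all genes 31.5% were higher. In all, 10 of the S phase genes and 22 of the tested G2/M genes had no UMI in total muscle and entered the test through the injured libraries. With such genes set at their lower limit the list medians were 2.49 and 2.96, and without scaling 39 and 44 genes were still higher.

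Hmgb2, a chromatin protein of dividing cells, stood at 1188 and 1094 CPM in injured MuSCs against 77.4 and 73.8 CPM in total muscle, a log2 fold change of 3.92 ± 0.18 (SE, 2 libraries each, adjusted p = 3.78e-11 by edgeR's quasi-likelihood test). Cks1b, a subunit of cyclin-dependent kinases, stood at 648 and 659 CPM in injured MuSCs against 30.3 and 50.01 CPM in total muscle (3.97 ± 0.22), and its paralogue Cks2 at 393 and 344 CPM in injured MuSCs against 40.4 and 52.4 CPM in total muscle (2.96 ± 0.22). The injured libraries lay above both total muscle libraries for each of the 3, as in 47.6% of all tested genes. Rrm2, the ribonucleotide reductase subunit that supplies deoxynucleotides, stood at 411 and 375 CPM in injured MuSCs and had 1 UMI in all of total muscle, a ratio of 284-fold (50.9 to 11218) with its counting interval. Dut, which clears dUTP, rose by 5.35 ± 0.30 on the log2 scale, with 427 and 373 CPM in injured MuSCs and 10.1 and 9.53 CPM in total muscle. Smaller differences were those of Slbp, the histone mRNA binding protein (1.87 ± 0.22), Pcna, the polymerase clamp (0.78 ± 0.20), and Anp32e, a histone chaperone (0.61 ± 0.16). Neither Pcna nor Anp32e passed without scaling, Pcna lost its call without total muscle library 1 and Anp32e without total muscle library 2, and Pcna has a near-identical copy. Cdk1, the mitotic kinase, had 124 and 107 CPM in injured MuSCs and 1 UMI in total muscle. Ccna2, cyclin A2, had 102 and 87.96 CPM in injured MuSCs and 0 UMIs in total muscle, at least 23.04-fold higher.

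Promoters of the replication and mitosis lists shared known cell cycle elements. Windows reaching from 250 bases before to 50 after the start of 32851 RefSeq transcripts (GRCm38.p6) were searched on both strands. The transcripts belong to 27025 genes, so a gene can count more than once. The letters TTTGAA, the core of the cell cycle homology region (CHR) through which mitotic genes are repressed in resting cells, were found in 67.3% of 55 G2/M promoters and 17.9% of all promoters. CCAAT, the box bound by NF-Y, was found in 76.4% of the G2/M promoters and 37.4% of all. In the other lists searched it ranged from 28.6% of 35 matrix promoters to 83.3% of 18 MHC class I promoters. The box is therefore not read as particular to the G2/M list. E2F-type letters (TTTCCCGC, TTTGGCGC, TTTCGCGC or TTTGCCGC) were found in 34.9% of 43 S phase promoters and 2.26% of all. The 250 bases before the start of Cdk1 (chr10:69352913-69353162, minus strand) and Cks1b (chr3:89418292-89418541, minus strand) are shown because both elements stand in them. Capitals mark the CHR letters, the CCAAT box and, in Cdk1, the E2F-type letters, on either strand, and the sequence reads 5′ to 3′ along the gene. A match describes the letters and says nothing of whether a factor is bound.
Cdk1: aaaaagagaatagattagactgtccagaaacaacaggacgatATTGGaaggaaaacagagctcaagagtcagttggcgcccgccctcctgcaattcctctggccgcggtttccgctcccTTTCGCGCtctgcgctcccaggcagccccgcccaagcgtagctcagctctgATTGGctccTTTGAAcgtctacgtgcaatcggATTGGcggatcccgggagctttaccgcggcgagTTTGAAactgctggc
Cks1b: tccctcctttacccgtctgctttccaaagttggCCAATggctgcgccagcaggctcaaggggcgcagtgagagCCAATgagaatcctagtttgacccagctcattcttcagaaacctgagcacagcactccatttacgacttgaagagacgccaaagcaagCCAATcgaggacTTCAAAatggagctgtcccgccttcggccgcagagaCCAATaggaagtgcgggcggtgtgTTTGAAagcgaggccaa

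**Figure D2:**
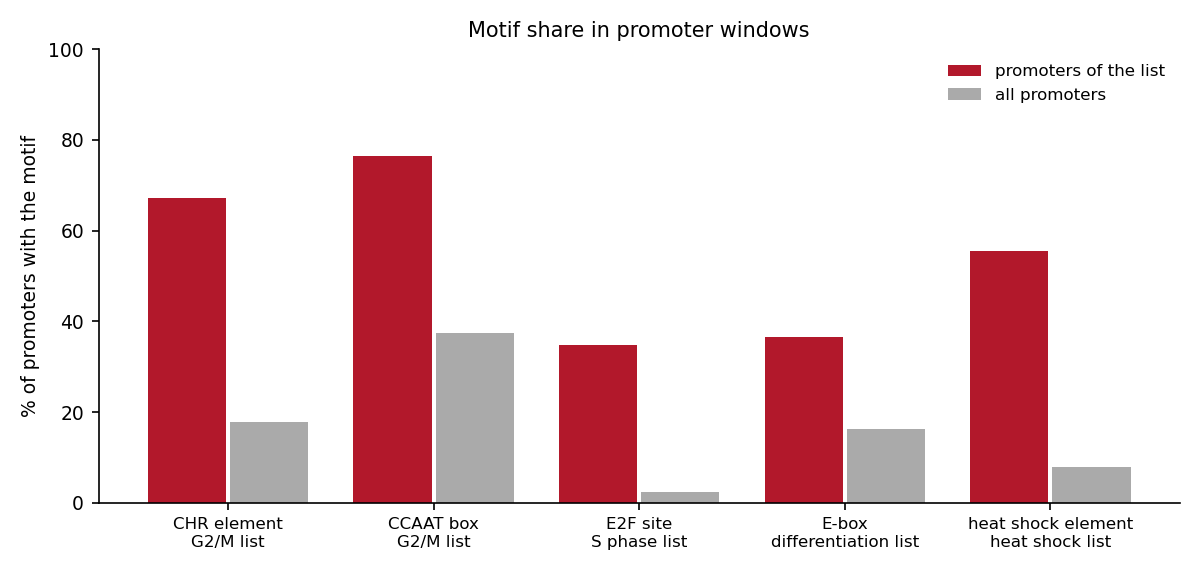
Share of promoter windows with a motif (y axis, % of promoters), for the named list and for all 32851 promoters. Each list bar stands above the grey bar beside it, for example 67.3% against 17.9% for the CHR letters.

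Genes that drive or brake entry into S phase rose together with some p53 targets. Of 31 genes in this list, 29 were tested, 20 were higher and 1 was lower, and without scaling 18 were higher and 4 lower. Over all genes 31.5% were higher and 21.5% lower. In this list 4 tested genes had no UMI in total muscle and entered the test through the injured libraries. With these at their lower limit the list median was 1.86 in place of 2.01. Cdk4, the kinase partner of D-type cyclins, stood at 474 and 440.4 CPM in injured MuSCs against 26.9 and 57.2 CPM in total muscle (3.37 ± 0.24, and 4.12 without total muscle library 2). Cdk6 stood at 311 and 424 CPM in injured MuSCs and had 3 UMIs in total muscle, a ratio of 85.7-fold (29.3 to 416). Ccnd1, cyclin D1, stood at 187 and 188 CPM in injured MuSCs against 3.37 and 7.14 CPM in total muscle. Brakes rose too: Cdkn1b (p27) stood at 122 and 148 CPM in injured MuSCs against 26.9 and 9.53 CPM in total muscle (3.0 ± 0.35), and Cdkn2a had 56.9 and 46.6 CPM and 0 UMIs, at least 12.6-fold higher in injured MuSCs. Cdkn1a (p21), the p53-induced inhibitor, did not pass, at 554 and 591 CPM in injured MuSCs and 616 and 448 CPM in total muscle (adjusted p = 0.545). Bax, a cell death gene and p53 target, was higher at 370.5 and 357 CPM in injured MuSCs against 80.8 and 97.6 CPM in total muscle (2.01 ± 0.19), and Gadd45a, a stress-induced growth arrest gene, was the lower one (-1.68 ± 0.17).

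**Figure D3:**
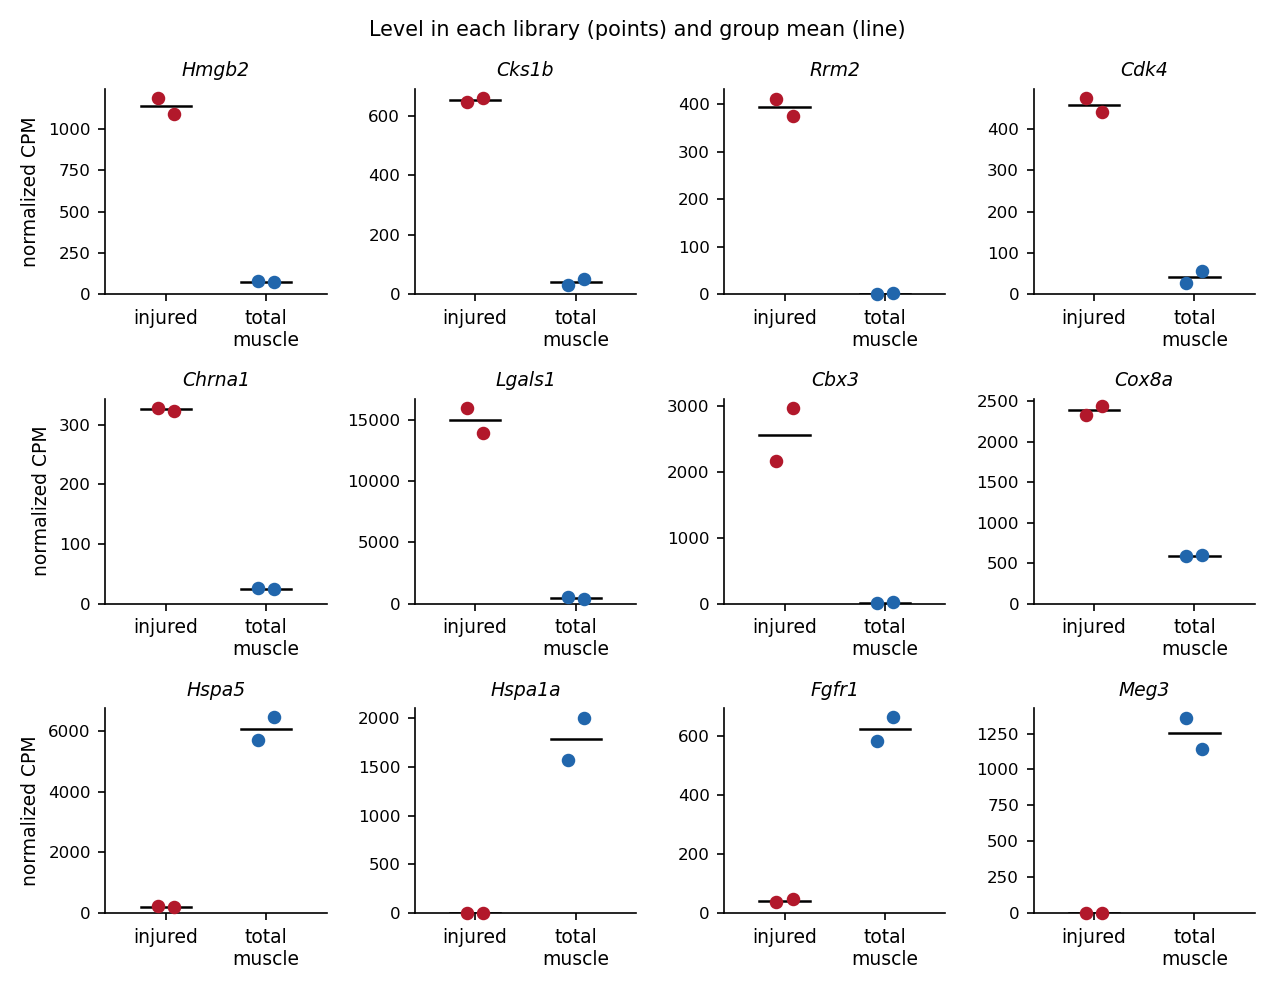
Normalized CPM (y axis, from 0) of 12 genes in each library, with injured MuSCs at the left and total muscle myogenic cells at the right of each panel. Lines are group means, and in every panel the libraries of the 2 groups do not overlap. Over all tested genes, both injured libraries lay above both total muscle libraries in 47.6% and below both in 32.1%.

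Per cell, the cell cycle genes were found in a minority at equal depth. Cells were thinned to 1000 UMIs, and shared barcodes and shallower cells (0 and 7 injured) were left out. A UMI of Mki67 or Top2a, genes of cycling cells, was found in 15.4% and 17.9% of injured cells and in 1.47% and 2.04% of total muscle cells. Exact 95% binomial intervals were 13.1% to 17.9% and 16.1% to 19.8% for the injured libraries, and reached up to 7.92% and 7.18% for total muscle. Intervals cover counting error only. Unthinned, with all chosen cells, the shares were 64.9% and 43.7% in injured cells at medians of 7375 and 3287 UMIs, and 1.45% and 2.04% in total muscle at 3582 and 3515. Cells of the same libraries with a Ptprc or Pecam1 UMI carried a Mki67 or Top2a UMI in 14.8% and 12.5% of those cells in the injured libraries and 1.05% and 1.33% in total muscle. With 27 and 16 such cells in the injured libraries, the intervals of both kinds of cell overlapped, so the share is not read as particular to the myogenic cells. Stmn1, a microtubule regulator of dividing cells, was found in 33.1% and 27.2% of injured cells and in 1.47% and 0% of total muscle cells, and among the cells with Ptprc or Pecam1 in 25.9% and 31.2% of those cells in the injured libraries and 9.86% and 8.19% in total muscle. Myog-positive injured cells had a Mki67 or Top2a UMI in 10.8% and 7.65%, and Myog-negative ones in 15.7% and 19.2%.

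**Figure D4:**
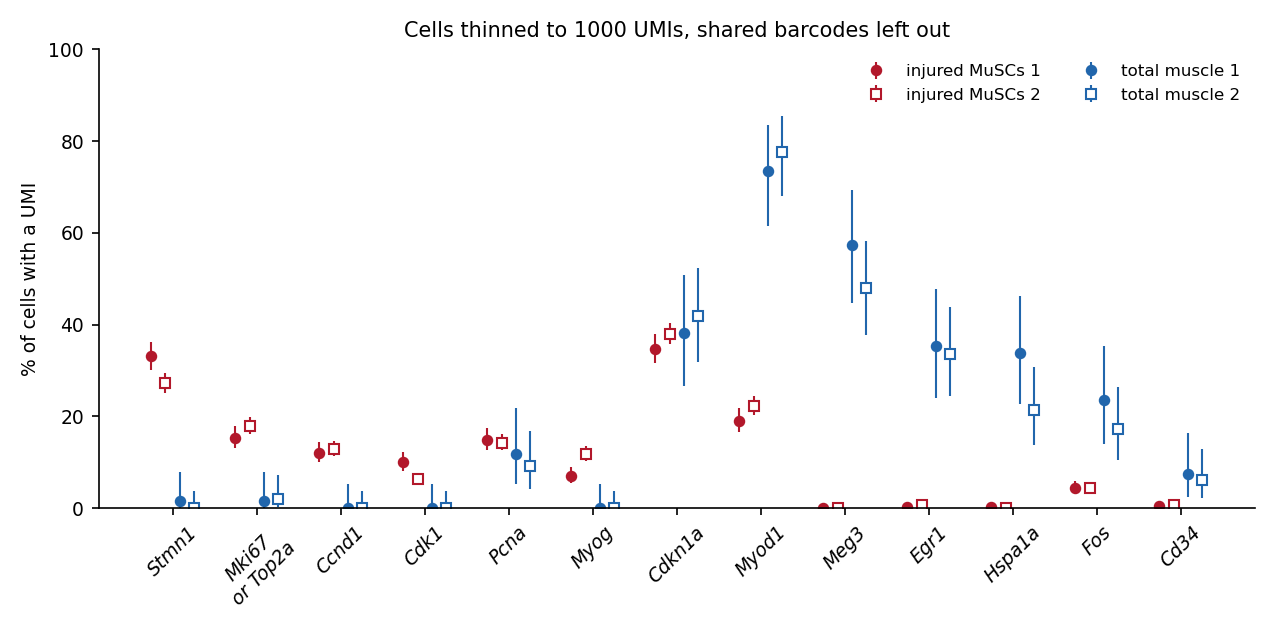
Share of cells with at least 1 UMI of a gene after thinning to 1000 UMIs a cell (y axis, %), in the 2 injured libraries and the 2 total muscle libraries, with shared barcodes left out and exact 95% binomial intervals as bars. Stmn1 and Mki67 or Top2a are above total muscle in both injured libraries, and Meg3, Egr1 and Hspa1a are below it. Myod1 and Myog also chose the cells.

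With all chosen cells, genes of terminal differentiation were called about as often as the other genes tested. With the cells rich in other-type markers left out, more of them were higher than among all genes. Those that rose included acetylcholine receptor subunits, embryonic troponin T and the giant sarcomere proteins Ttn and Neb, and those that fell included skeletal actin, fast troponins and creatine kinase. Of 46 listed genes in the table, 34 were tested, 12 were higher and 7 lower, beside 31.5% and 21.5% of all genes. Chrna1, the acetylcholine receptor alpha subunit, stood at 329 and 323 CPM in injured MuSCs against 26.9 and 23.8 CPM in total muscle (3.69 ± 0.24, adjusted p = 3.34e-09 by edgeR). The receptor subunit genes Chrnd and Chrng, with 474 and 134 UMIs in injured MuSCs, had none in total muscle, at least 8.79-fold and 2.48-fold higher. Tnnt2, the embryonic troponin T, and H19, an imprinted RNA of myoblasts, also had no UMI in total muscle, at least 5.88-fold and 11.2-fold higher. Tpm1, a tropomyosin, stood at 613 and 589 CPM in injured MuSCs against 97.6 and 229 CPM in total muscle (1.82 ± 0.23). When the injured rule chose the cells of both groups, Tpm1 was lower instead (log2 -2.89). It was at 2.65 without total muscle library 2 and at 2.73 without the cells rich in other-type markers. Acta1, skeletal actin and a gene whose call was lost without total muscle library 2, stood at 26.9 and 64.4 CPM in injured MuSCs against 114 and 517 CPM in total muscle (-2.88 ± 0.44), and Ckm, muscle creatine kinase, at 1.199 and 0.371 CPM in injured MuSCs against 57.2 and 193 CPM in total muscle (-7.23 ± 0.53). Total muscle library 2 was the high one for both, and it held the cell rich in myofibre RNA. With the cells rich in other-type markers left out, 19 of 33 tested genes were higher and 5 lower. In that setting 32.6% of all genes were higher and 21.1% lower, which is 53.8% in either direction. Acta1 was then at -1.54, Ckm at -6.28, Tnnt3 at 0.21 and Tnnc2 at -0.07. Summed over the 9 tested of 13 myofibre markers, injured libraries had 242 and 421 CPM and total muscle 333 and 1658 CPM. Injured library 2 thus lay above total muscle library 1. The part of myofibre RNA in these differences was not tested. The letters CAGCTG, an E-box form that MyoD-family factors bind, were in 36.6% of 41 promoters of the list and 16.3% of all. The Chrna1 promoter (chr2:73580339-73580588, minus strand) is shown because the gene was abundant among those that rose, with CAGCTG in capitals.
Chrna1: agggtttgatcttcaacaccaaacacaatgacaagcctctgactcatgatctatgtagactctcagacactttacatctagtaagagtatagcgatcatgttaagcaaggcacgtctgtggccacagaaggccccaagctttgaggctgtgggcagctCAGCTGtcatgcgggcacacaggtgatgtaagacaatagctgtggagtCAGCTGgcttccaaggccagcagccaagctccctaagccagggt

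Regulators of the myogenic programme were also called about as often as the other genes tested, with a median log2 of 0.09 over 18 tested genes that had not chosen cells. Of these, 7 were higher and 4 lower, and without scaling 6 were higher and 6 lower. Eya1, a cofactor of the Six4 family, was at 63.01 and 79.98 CPM in injured MuSCs against 16.8 and 11.9 CPM in total muscle (2.35 ± 0.38), and Six4, a homeobox factor of muscle, at 29.3 and 34.7 CPM in injured MuSCs against 0 and 11.9 CPM in total muscle (2.19 ± 0.58). Six4 had no UMI in total muscle library 1 and lost its call without it. Of the E proteins that pair with MyoD, Tcf3 and Tcf12 rose and Tcf4 did not pass. Tcf3 stood at 70.6 and 64.4 CPM in injured MuSCs against 3.37 and 9.53 CPM in total muscle (3.27 ± 0.44, and 4.35 without total muscle library 2). Tcf12 stood at 106 and 115 CPM in injured MuSCs against 47.1 and 23.8 CPM in total muscle (1.71 ± 0.29). Mef2a, a late activator, rose by 0.77 ± 0.24 and lost its call without scaling, without injured library 2 or without either total muscle library. It also lost its call with sums thinned to the smallest library and with GC-rich barcodes only. The inhibitors of E proteins differed among themselves. Id2 was higher at 329.8 and 327 CPM in injured MuSCs against 111 and 102 CPM in total muscle (1.63 ± 0.18), Id3 was lower at 469 and 393 CPM in injured MuSCs against 1572 and 1398 CPM in total muscle (-1.78 ± 0.14), Id1 did not pass at 244 and 178 CPM in injured MuSCs against 232 and 226 CPM in total muscle, and Id4 was lower on 7 UMIs in total muscle (-1.84 ± 0.75) and lost its call without total muscle library 2 (-0.29). The Id4 call was also lost with DESeq2, without a filter on low counts and with stricter cell filters. Bhlhe41, a repressor, had 714 UMIs in injured MuSCs and 2 in total muscle, a ratio of 19.8-fold (5.47 to 164). Heyl, a Notch target, fell to 1.47 and 3.15 CPM in injured MuSCs against 50.5 and 26.2 CPM in total muscle. Pax7, the defining factor of satellite cells, rested on 123 UMIs in injured MuSCs and 10 in total muscle, with 7.99 and 11.7 CPM in injured MuSCs and 13.5 and 14.3 CPM in total muscle, and did not pass (-0.53 ± 0.53). Pax3 was lower on 5 UMIs in total muscle (-2.08 ± 0.81, adjusted p = 0.0409 by edgeR), a call lost without either total muscle library. That call was also lost without a filter on low counts, with a replicate block, in the fit of 6 libraries and when the injured rule chose both groups. Myf6, Mef2d, Tcf4 and Bhlhe40 did not pass, at log2 values of -1.76, -0.66, -0.02 and 0.32.

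Genes linked to quiescence were mostly lower in injured MuSCs. Of 42 such genes in the table, 3 had chosen cells and 34 were tested, of which 22 were lower, against 21.5% of all genes, and 6 higher. Meg3, an imprinted long RNA abundant in resting satellite cells, stood at 1.73 and 1.11 CPM in injured MuSCs against 1359.8 and 1141 CPM in total muscle (-9.69 ± 0.23, adjusted p = 3.20e-14 by edgeR's quasi-likelihood test). At equal depth Meg3 was found in 0.108% and 0.0604% of injured cells and in 57.4% and 47.96% of total muscle cells. Among cells with Ptprc or Pecam1 it was found in 0% and 12.5% of those cells in the injured libraries and 4.99% and 4.76% in total muscle. Vcam1, an adhesion molecule of satellite cells, stood at 100.4 and 102 CPM in injured MuSCs against 730.4 and 669 CPM in total muscle (-2.78 ± 0.15), and Sdc4, a heparan sulphate proteoglycan, at 909 and 1109 CPM in injured MuSCs against 2181 and 2667 CPM in total muscle (-1.27 ± 0.14). Cd34 (-2.63 ± 0.35) and Spry1, a brake on growth factor signalling (-2.54 ± 0.48), were lower as well. The 6 higher genes were Cdkn1b, Foxo3, Dag1, Nfix, Rb1 and Hmga2. Hmga2, a chromatin protein of growing cells listed here for its repression in resting ones, had 1244 UMIs in injured MuSCs and none in total muscle.

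The Notch pathway, which keeps satellite cells undifferentiated, was mixed, with 4 of 16 tested genes higher and 7 lower. Receptors parted, with Notch2 at 271 and 449 CPM in injured MuSCs against 43.8 and 50.01 CPM in total muscle (2.92 ± 0.30), while Notch1 (-1.74 ± 0.48) and Notch3 (-2.61 ± 0.40) were lower. Target genes Hey1 (-4.14 ± 0.39) and Heyl (-4.04 ± 0.53) were lower, with Hey1 at 3.06 and 3.34 CPM in injured MuSCs against 43.8 and 66.7 CPM in total muscle. Hes1 stood at 111 and 88.3 CPM in injured MuSCs against 101 and 307 CPM in total muscle (-1.10 ± 0.29). Total muscle library 2 was the high one, and without it the log2 value was 0.013. The call was also lost without injured library 2, with DESeq2 (-1.06) and with sums thinned to the smallest library (-0.99). Hes6, which counters Hes1 and promotes differentiation, had 1609 UMIs in injured MuSCs and 3 in total muscle, a ratio of 29.8-fold (10.2 to 145). The ligand Dll1 and the protease Adam10, which releases Notch, were the others that rose.

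Stress-induced genes were lower in injured MuSCs. Of 35 tested immediate-early genes, 27 were lower and 1 was higher, Klf10 (0.83 ± 0.28), and of 16 heat shock genes, all tested, 13 were lower and 2 higher, Hspe1 (1.14 ± 0.18), a mitochondrial chaperonin, and Hspb8 (2.79 ± 0.60). Hspa5, the chaperone of the endoplasmic reticulum, stood at 249 and 189 CPM in injured MuSCs against 5708 and 6447 CPM in total muscle (-4.79 ± 0.15, adjusted p = 5.04e-13 by edgeR). Hspa1a, the inducible cytosolic chaperone, stood at 1.86 and 3.34 CPM in injured MuSCs against 1575 and 2005 CPM in total muscle (-9.47 ± 0.24). Hspb1, a small heat shock protein, stood at 68.5 and 63.7 CPM in injured MuSCs against 2279 and 2655 CPM in total muscle (-5.22 ± 0.15). The constitutive Hspa8 differed less (-2.14 ± 0.16), and Hsp90ab1 the least, at 1904 and 1817 CPM in injured MuSCs and 2326 and 2413 CPM in total muscle (-0.35 ± 0.11), a call lost without injured library 2 or without either total muscle library.

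Among immediate-early factors, Myc stood at 123 and 105 CPM in injured MuSCs against 724 and 762 CPM in total muscle (-2.70 ± 0.15), and Cebpb, a repressor of myogenic differentiation, at 421 and 424 CPM in injured MuSCs against 1780.5 and 1843 CPM in total muscle (-2.10 ± 0.12). Junb (-1.70 ± 0.15) and the antiproliferative gene Btg1 (-1.87 ± 0.13) were lower by similar amounts. Egr1, a growth factor induced zinc finger factor, stood at 7.19 and 7.79 CPM in injured MuSCs against 582 and 562 CPM in total muscle (-6.25 ± 0.19). At equal depth Egr1 was found in 0.325% and 0.785% of injured cells and in 35.3% and 33.7% of total muscle cells. Among cells with Ptprc or Pecam1, Egr1 was found in none of the 27 and 16 cells of the injured libraries and in 27.6% and 28.2% of those in total muscle. Hspa1a was found in 0.216% and 0.0604% of injured cells and in 33.8% and 21.4% of total muscle cells. Among cells with Ptprc or Pecam1, Hspa1a was found in none of the injured libraries' cells and in 51.4% and 49.8% of those in total muscle. The Hspa1a share in total muscle myogenic cells thus lay below that of the other cells and is not read as particular to them, and how much free RNA contributed was not tested. In sorted homeostatic MuSCs the homeostatic minus total muscle log2 values were 0.11 for Egr1, -0.16 for Hspa1a and -0.09 for Hspa5 (6 libraries in 1 fit), and the homeostatic libraries had 2695 and 626 CPM of Hspa1a.

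The letters GAANNTTC, a short form of the heat shock element, stood in 55.6% of 18 promoters of the heat shock list and 7.86% of all promoters. The 18 promoters belong to 12 of the 16 genes. Genes with the letters included Hspa1a and Hspb1, which were lower, and also Hspe1 and Hspb8, the 2 that were higher. The longer endoplasmic reticulum stress element was in 39 of the 32851 windows, among them those of Hspa5 and of Calr. The promoters of Hspa1a (chr17:34972157-34972406, minus strand), Hspb1 (chr5:135887669-135887918, plus strand) and Hspa5 (chr2:34771840-34772089, plus strand) are shown, as the abundant heat shock genes whose levels differed by over 4 on the log2 scale. Capitals mark GAANNTTC in Hspa1a and Hspb1, CCAAT on the minus strand in Hspa1a, and the endoplasmic reticulum stress element in Hspa5.
Hspa1a: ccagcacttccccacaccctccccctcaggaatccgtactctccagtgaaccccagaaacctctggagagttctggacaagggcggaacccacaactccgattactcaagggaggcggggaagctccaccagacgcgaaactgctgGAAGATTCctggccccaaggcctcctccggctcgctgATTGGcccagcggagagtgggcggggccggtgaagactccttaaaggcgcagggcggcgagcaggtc
Hspb1: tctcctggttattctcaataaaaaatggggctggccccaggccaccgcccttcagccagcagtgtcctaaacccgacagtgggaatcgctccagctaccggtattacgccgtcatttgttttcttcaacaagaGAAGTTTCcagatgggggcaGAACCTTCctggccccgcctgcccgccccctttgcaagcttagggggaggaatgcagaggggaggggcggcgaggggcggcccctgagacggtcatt
Hspa5: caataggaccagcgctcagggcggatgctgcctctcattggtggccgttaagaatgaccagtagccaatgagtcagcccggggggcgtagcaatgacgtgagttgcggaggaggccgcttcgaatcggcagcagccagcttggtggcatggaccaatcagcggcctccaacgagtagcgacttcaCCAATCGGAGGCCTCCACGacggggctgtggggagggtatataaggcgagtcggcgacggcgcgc

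Antigen presentation genes were lower. Of 19 genes of the MHC class I pathway, 16 were tested, 11 were lower and 2 higher. H2-D1, a class I heavy chain, stood at 87.1 and 60.5 CPM in injured MuSCs against 646 and 693 CPM in total muscle (-3.18 ± 0.18), with near-identical copies that can share reads. B2m, the light chain, stood at 185 and 142 CPM in injured MuSCs against 761 and 574 CPM in total muscle (-2.02 ± 0.18). The loading chaperones Pdia3 (-2.38 ± 0.16) and Calr (-1.11 ± 0.14) were lower too. The higher pair were H2-T23 and the immunoproteasome subunit Psmb10, which had 1473 UMIs in injured MuSCs and 2 in total muscle, a ratio of 40.95-fold (11.3 to 338). Of 26 interferon-response genes only 13 were tested, 7 lower and 2 higher. Ifi27 stood at 23.8 and 27.5 CPM in injured MuSCs against 219 and 205 CPM in total muscle (-3.05 ± 0.20), Ifitm3 was lower by less (-0.83 ± 0.14), and Xaf1 was higher on 2 UMIs in total muscle, a ratio of 23.1-fold (6.38 to 191). Without the cells rich in other-type markers, 8 of 14 MHC genes and 5 of 11 interferon genes were lower.

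Matrix genes were lower in injured MuSCs, and RNA of fibro-adipogenic markers was present in the total muscle cells. Of 41 genes 34 were tested, 26 were lower and 1 was higher, Thbs1, a matrix protein that activates TGF-beta, at 172 and 347 CPM in injured MuSCs against 94.2 and 35.7 CPM in total muscle (2.09 ± 0.39). Thbs1 was at 2.84 without total muscle library 1 and 1.49 without library 2, and did not pass when the injured rule chose the cells of both groups. Dcn, a fibroblast proteoglycan, stood at 1.199 and 3.53 CPM in injured MuSCs against 1447 and 405 CPM in total muscle (-8.66 ± 0.54), and Col3a1 at 23.2 and 30.99 CPM in injured MuSCs against 279 and 88.1 CPM in total muscle (-2.69 ± 0.35), with library 1 the high one for both, and without it Dcn was at -7.53 and Col3a1 at -1.73. The 12 tested of 14 fibro-adipogenic markers summed to 118 and 143 CPM in injured MuSCs and 6445 and 2067 CPM in total muscle. In sorted homeostatic MuSCs they summed to 1291 and 1412 CPM (6 libraries in 1 fit), so the sum is not read as fibroblast RNA alone. Pdgfra was at 0 by the rule. Without the cells rich in other-type markers, 20 of 32 genes were lower and 3 higher, and the list median was -1.94 in place of -2.95. Dcn was then at -7.24, Sparc at -0.92 and Col3a1 at -2.01. Col4a1, a basal lamina collagen, stood at 0.3996 and 1.11 CPM in injured MuSCs against 94.2 and 69.1 CPM in total muscle (-6.76 ± 0.45), and at -5.98 without those cells. The part of fibroblast RNA in these differences was not tested.

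Secreted ligands were mostly lower as well, and more of their receptors were lower than higher. Of 27 tested ligand genes 17 were lower and 6 higher. Of 28 tested receptor genes 13 were lower, 3 were higher and 12 did not pass. Over all genes 21.5% were lower. Without scaling 16 receptor genes were lower and 1 higher. Without the cells rich in other-type markers 15 of 26 ligand genes were lower, with a median of -1.69 in place of -2.41. Apoe, a lipid carrier, stood at 12.8 and 7.42 CPM in injured MuSCs against 528 and 662 CPM in total muscle (-5.85 ± 0.23), and Cxcl1, a chemokine for neutrophils, at 310.4 and 327 CPM in injured MuSCs against 1797 and 953 CPM in total muscle (-2.10 ± 0.21). The total muscle libraries differed for Ccl2, a chemokine for monocytes, at 91.2 and 106 CPM in injured MuSCs and 488 and 126 CPM in total muscle (-1.57 ± 0.35), which lost its call without total muscle library 1 (-0.38) and was at -0.71 without the cells rich in other-type markers. Igfbp6 was at -3.84 ± 0.21, and at -1.36 without the cells rich in other-type markers. The 6 higher ligand genes were Vegfa, Vegfb, Pdgfa, Igfbp3, Igfbp5 and Mdk, with Vegfa at 148 and 170.5 CPM in injured MuSCs against 40.4 and 45.2 CPM in total muscle. Fgfr1, a receptor for fibroblast growth factors whose sequence has near-identical copies, stood at 36.8 and 46.6 CPM in injured MuSCs against 582 and 662 CPM in total muscle (-3.91 ± 0.18). Osmr, the oncostatin M receptor, stood at 2.797 and 2.41 CPM in injured MuSCs against 131 and 83.4 CPM in total muscle (-5.29 ± 0.34), and Tnfrsf12a, the TWEAK receptor, at 443 and 429.8 CPM in injured MuSCs against 1723 and 1459.9 CPM in total muscle (-1.86 ± 0.13). Il6st, the shared signalling chain of the interleukin 6 family, and Lifr were lower with it (-2.26 ± 0.31 and -2.27 ± 0.57).

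Adhesion genes split, with 9 of 26 tested higher and 12 lower. Their median was -0.29, and 0.14 without the cells rich in other-type markers, with 8 of 25 higher and 11 lower. The galectins Lgals1 and Lgals3, sugar-binding proteins, were the abundant ones that rose. Lgals1 stood at 15965 and 13936 CPM in injured MuSCs against 515 and 407 CPM in total muscle (5.03 ± 0.14), and Lgals3 at 922 and 759.7 CPM in injured MuSCs against 16.8 and 33.3 CPM in total muscle (4.99 ± 0.25, and 5.67 without total muscle library 2). The tetraspanin genes Cd9 (-2.94 ± 0.16) and Cd63 (-1.09 ± 0.11) fell. Cdh2, N-cadherin, had 1441 UMIs in injured MuSCs and 1 in total muscle, a ratio of 80.1-fold (14.4 to 3167), while Itgb1, the beta 1 integrin, was lower (-1.46 ± 0.16).

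Mitochondrial energy genes encoded in the nucleus were higher. Of 79 oxidative phosphorylation genes, all tested, 71 were higher and 2 lower, and of 18 tested genes of the citric acid cycle 12 were higher and none lower. Cox8a, a subunit of cytochrome oxidase, stood at 2328 and 2439 CPM in injured MuSCs against 586 and 595 CPM in total muscle (2.01 ± 0.12, adjusted p = 1.60e-09 by edgeR), Cox7c at 1879 and 1847 CPM in injured MuSCs against 491 and 476 CPM in total muscle (1.95 ± 0.13) and Cycs, cytochrome c, at 1642 and 1514 CPM in injured MuSCs against 397 and 514 CPM in total muscle (1.78 ± 0.15). Both injured libraries lay above both total muscle libraries for these 3, as they did in 47.6% of all tested genes. The 2 lower genes, Cox6a2 (-3.27 ± 0.70) and Cox8b (-5.15 ± 0.64), encode the heart and muscle fibre forms of cytochrome oxidase subunits. Mdh2 (1.36 ± 0.17) and Pdhb (1.02 ± 0.23) of the citric acid cycle and its entry rose by less, and Idh3a (0.92 ± 0.21) did not pass without scaling. Without scaling 64 oxidative phosphorylation genes were higher and 3 lower, and 7 citric acid cycle genes higher and 1 lower. RNA encoded by the mitochondrion itself, which the choice of cells used, was a median of 3.88% and 3.67% of UMIs per cell in injured MuSCs and 0.675% and 0.732% in total muscle.

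Glycolysis was mixed, with 9 of 21 tested genes higher and 6 lower, and 11 of 20 higher and 4 lower without the cells rich in other-type markers. Eno1 stood at 871 and 652 CPM in injured MuSCs against 57.2 and 95.3 CPM in total muscle (3.27 ± 0.23), Gapdh at 1687 and 1372 CPM in injured MuSCs against 283 and 383 CPM in total muscle (2.18 ± 0.16) and Pkm at 781 and 608 CPM in injured MuSCs against 269 and 355 CPM in total muscle (1.14 ± 0.17). Eno1 and Gapdh have near-identical copies. The glucose transporter Slc2a1 (-3.01 ± 0.33) and hexokinase Hk2 (-1.47 ± 0.18) were lower. Eno3, the muscle enolase, was at 580.1 and 392 CPM in injured MuSCs against 6.73 and 59.5 CPM in total muscle (3.71 ± 0.37), with total muscle library 2 the higher of its pair. It was at 6.20 without that library, at 3.01 without total muscle library 1, at 5.54 without the cells rich in other-type markers, and was lower (log2 -0.91) when the injured rule chose both groups. Gapdh lost its call under that rule. One-carbon and nucleotide genes, which feed DNA synthesis, were higher in 20 of 31 and lower in 5. Phgdh, the entry enzyme of serine synthesis, stood at 229 and 177 CPM in injured MuSCs against 3.37 and 9.53 CPM in total muscle (4.86 ± 0.39). Nme1, a nucleoside diphosphate kinase, stood at 1188 and 1231 CPM in injured MuSCs against 276 and 369 CPM in total muscle (1.89 ± 0.15) and Dtymk, thymidylate kinase, at 387 and 391 CPM in injured MuSCs against 33.7 and 26.2 CPM in total muscle (3.73 ± 0.23).

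Genes that build ribosomes and start translation leaned the other way. Of 31 ribosome biogenesis genes 19 were lower and 6 higher, and of 36 tested translation factor genes 17 were lower and 5 higher. Without scaling 22 and 26 were lower and 3 and 3 higher. Eif4a1, the RNA helicase of initiation, stood at 1184 and 856 CPM in injured MuSCs against 3096 and 3219.8 CPM in total muscle (-1.63 ± 0.14), and Eif1, which sets start codon choice, at 1918 and 1615 CPM in injured MuSCs against 5409 and 5644 CPM in total muscle (-1.65 ± 0.12). Eif5a, needed for elongation, was higher at 2778 and 2517 CPM in injured MuSCs against 1356 and 1398 CPM in total muscle (0.94 ± 0.12), and Eef1a1 was lower (-0.82 ± 0.12). Npm1, a nucleolar chaperone, was higher with scaling (0.65 ± 0.12) and did not pass without it. Nhp2 (0.56 ± 0.15) lost its call without scaling or without total muscle library 1. Ddx21, an RNA helicase, was lower (-0.69 ± 0.14), and the call of Ncl, nucleolin (-0.34 ± 0.12), was lost without either injured library or without total muscle library 2. Ribosomal protein genes were higher in 41 of 81 and lower in 9 (median 0.29), and without scaling 21 were higher and 27 lower, so no direction is given for them. Proteasome genes were higher in 8 of 31 and lower in 6, and without scaling 6 were higher and 14 lower, so no direction is given for them either. Cholesterol synthesis genes were higher in 3 of 19 and lower in 6.

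Splicing and chromatin genes were mostly higher and cytoskeleton genes moved in both directions. Of 31 tested splicing and chromatin genes 22 were higher and 4 lower, and without scaling 18 were higher and 7 lower. Hmgb1, a DNA-bending protein, stood at 6021 and 6261 CPM in injured MuSCs against 276 and 324 CPM in total muscle (4.35 ± 0.13), and the histone variant gene H2afz at 3829 and 3785 CPM in injured MuSCs against 202 and 243 CPM in total muscle (4.09 ± 0.14). Cbx3, heterochromatin protein 1 gamma, stood at 2169 and 2973 CPM in injured MuSCs against 10.1 and 19.1 CPM in total muscle (7.39 ± 0.26), and Ybx1 rose by less (1.09 ± 0.12). Of 29 cytoskeleton genes 17 were higher and 10 lower, and without scaling 12 were higher and 10 lower. Actb, cytoplasmic actin, stood at 31008 and 47916 CPM in injured MuSCs against 3453 and 3487 CPM in total muscle (3.51 ± 0.16). Tmsb10, which binds actin monomers, stood at 19081 and 20076 CPM in injured MuSCs against 979 and 953 CPM in total muscle (4.34 ± 0.11) and Pfn1, profilin, at 7756 and 7734 CPM in injured MuSCs against 528 and 488 CPM in total muscle (3.93 ± 0.12). Myl12a, a non-muscle myosin light chain, was lower (-0.59 ± 0.12).

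Of all tested genes, the 10 highest fitted rises among those at 50 CPM or more, after the exclusions named under the processing, were those of genes with no UMI in total muscle. They were Hist1h2ap, Pbld2, Diaph3, Spc24, Cenpf, Unc13d, Trp53i11, Cdca3, Uhrf1 and Nol4l. Diaph3 (a formin of cell division), Spc24 and Cenpf (kinetochore proteins), Cdca3 and Uhrf1 (which maintains DNA methylation at replication) are cell cycle genes. They were at least 46.4-fold, 43.3-fold, 39.7-fold, 30.4-fold and 27.6-fold higher. Hist1h2ap, Spc24, Cenpf, Unc13d and Nol4l share sequence with near-identical copies, and their values are uncertain. In the other direction, Ptprb, Trf, the iron carrier transferrin, and Ms4a4d were among the 10 lowest and had no UMI in injured MuSCs. Trf had 43.8 and 85.7 CPM in total muscle, at least 294-fold lower in injured MuSCs. Ptprb and P2ry14 were at -3.70 and -4.18 in homeostatic MuSCs minus total muscle. The 12 endothelial markers, with Pecam1 at 0 by the rule, summed to 7.03 and 9.61 CPM in injured MuSCs, without TMM scaling. They summed to 142 and 172 CPM in total muscle and 34.3 and 24.7 CPM in homeostatic MuSCs. The part of endothelial RNA in these falls was not tested.

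Homeostatic MuSCs, fitted with both other groups over 6 libraries, gave far fewer calls against total muscle, with 339 of 10291 genes higher (3.29%) and 295 lower (2.87%), which is 6.16% in either direction. Injured MuSCs against total muscle in that fit gave 3015 higher (29.3%) and 2205 lower (21.4%), which is 50.7% in either direction. Both differences use the same total muscle libraries, so their values are set side by side only. In the G2/M list the median was 6.10 for injured and 0.00 for homeostatic MuSCs, with 0 and 2 homeostatic calls higher and lower. Of the tested G2/M genes 22 had no UMI in total muscle, so neither median is a measured size. Cdca3, without a UMI in homeostatic MuSCs as well, was fitted at 0.0 there. In the fit without homeostatic MuSCs, the injured median was 2.96 with such genes at their lower limit. In oxidative phosphorylation the medians were 1.99 for injured and -0.08 for homeostatic MuSCs, and in the immediate-early list -2.37 and 0.31. Hspb1 was at -5.17 for injured and -0.27 for homeostatic MuSCs, Lgals1 at 5.08 and 0.60, and Fgfr1 at -3.86 and 0.02. Meg3 was at -9.65 for injured and 1.77 for homeostatic MuSCs. Differentiation genes had 10 of their members lower in homeostatic MuSCs, among them Acta1 (-4.51) and Tpm1 (-1.80), and matrix genes 11. Of ribosomal protein genes 75 were lower in homeostatic MuSCs (median -0.65) and none higher, and of translation factor genes 11 were lower. The homeostatic libraries also differed in Xist, the RNA of the inactive X chromosome, with 0.275 and 0.607 CPM there against 808 and 1104 CPM in injured MuSCs and 737 and 629 CPM in total muscle.

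**Figure D5:**
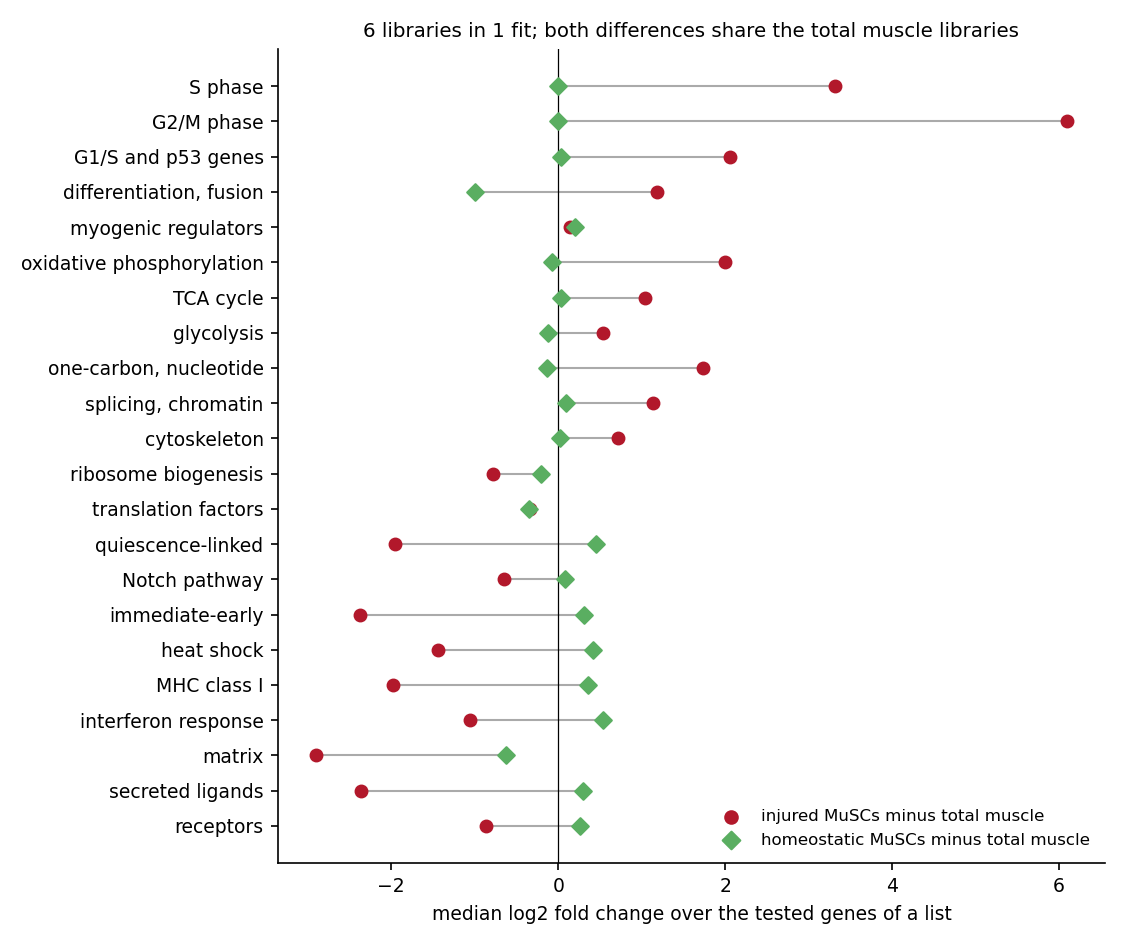
Median log2 fold change over the tested genes of each list (x axis), for injured MuSCs minus total muscle (circles) and homeostatic MuSCs minus total muscle (diamonds), from 1 fit of 6 libraries. Homeostatic medians lie between -1.0 (differentiation) and 0.53 (interferon response), and injured medians between -2.90 (matrix) and 6.10 (G2/M). The S phase and G2/M medians include genes without a total muscle UMI, whose fitted values are not measured sizes.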

How the data were processed

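Single-cell RNA of sorted or digested mouse muscle was measured as UMI counts per gene and cell. The deposited matrices hold raw whole-number counts made by the authors, and the submitters' processing notes name Cell Ranger 2.2.0, bcl2fastq 2.17.1, Seurat 2.3.4 and mm10, with no role or order. No doublet caller was run, and whether doublets were removed upstream is not given in the sources used here. Cells were chosen as stated in the report and their counts summed per library. After TMM scaling and a filter on low counts (filterByExpr), the sums entered the quasi-likelihood test of edgeR 4.0.16 (R 4.3.3) with Benjamini-Hochberg adjustment, on the 2 injured and 2 total muscle libraries, and homeostatic values came from 1 fit of 6 libraries. On simulated data the fit called 31 of 98 genes changed 2-fold, 63 of 94 changed 4-fold and 4 of 8898 unchanged genes. Few genes were changed there, against 53% called in the data, so the simulation does not test the scaling. Primary myoblasts were not used. The same-numbered libraries of both groups did not deviate together (r = -0.0239), and the main fit did not pair them. With 69 and 98 total muscle cells, counting noise could hide a pairing, so r does not exclude one.

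Genes were named by a rule: every tested myogenic regulator that did not choose cells, the up to 4 called members of highest mean CPM in each list, and the 10 largest rises and falls with at least 50 CPM in the higher group and no overlap between libraries, leaving out predicted, mitochondrial, ribosomal protein, other-type marker and choice genes. Some genes that the rule takes are not reported here. Other genes, such as Cdk1, Egr1 and Ckm, were chosen after their values were seen. The members and lists were chosen with earlier results of these data known. The alternatives were DESeq2 1.42.0, other filters on counts and cells, no TMM scaling, a replicate block, either choice rule in both groups, equal depth, GC-rich barcodes, shared barcodes left out and each library left out. Leaving out cells with over 1% of their UMIs from markers of another cell type was added after seeing the data. Copies were searched with blastn 2.17.0. Promoters came from RefSeq (GRCm38.p6).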

Additional observations from a re-analysis of the deposited data

How the results depend on the processing

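The alternatives were applied to the counts of called genes, the gene lists and the named genes. Leaving out 1 library gave 1738 to 2257 genes called higher and 1207 to 1583 called lower, and 12 to 18 lists with over 50% of their tested members called in 1 direction, against 18 with every library. Sums thinned to the smallest library gave 1163 called higher and 1101 lower, and the injured choice rule in both groups gave 3044 lower. With the library number as a replicate block, 2939 genes were higher and 1976 lower, and 1 of 135 named genes lost its call. Of the named genes, 117 of 127 stayed on their side of the threshold with no called value turning in thinned sums, 118 of 135 under the injured rule in both groups, 123 of 135 without TMM scaling and 134 of 135 with shared barcodes left out. The direction turned under the injured rule for Id1 (0.45), Bhlhe40 (-0.87), Tpm1 (-2.89), Eno3 (-0.91), Ncl (0.25) and Srebf2 (0.035), without total muscle library 2 for Hes1 (0.013, and -1.64 without total muscle library 1), and without scaling for Rps19 (-0.12), all log2, and the cause was not tested. Id1 and Bhlhe40, which did not pass, also turned elsewhere, Id1 without injured library 2 (0.15) and without a filter (0.062), and Bhlhe40 without scaling (-0.090), without total muscle library 2 (-0.41) and with the total muscle rule in both groups (-0.0022). The share of injured cells with a Mki67 or Top2a UMI was 64.9% and 43.7% without thinning, 8.93% and 11.04% at 500 UMIs, and 15.4% in injured library 1 with shared barcodes left out. With 69 and 98 total muscle cells, genes with few counts there are limited by depth.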

Other observations

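Classes of RNA differed between the libraries. Processed pseudogenes held 1.70% and 1.99% of the chosen cells' UMIs in injured MuSCs, 0.491% and 0.383% in homeostatic MuSCs and 0.415% and 0.375% in total muscle. Of 60 tested processed pseudogenes, 45 were higher in injured MuSCs and 3 lower. Long intergenic RNAs held 1.29% and 1.55% in injured MuSCs, 9.70% and 9.88% in homeostatic MuSCs and 4.98% and 5.23% in total muscle. Malat1, a nuclear long RNA, alone held 0.363% and 0.457% in injured MuSCs, 8.84% and 9.01% in homeostatic MuSCs and 4.49% and 4.76% in total muscle. Genes at 50 CPM or more in both injured libraries and with at most 3 UMIs over the 4 others numbered 19. They included Ccna2, Ccnb2, Cdk1, Gmnn, Nusap1, Hmga2, Murc, Cdca3, Hist1h2ap, Pbk, Uhrf1, Cst6 and Pbld2. The rest were mt-Nd4l, which is encoded by the mitochondrion, the pseudogene Rps12-ps3, Eno1b, Gm7120, Gm12603 and B230312C02Rik. The part of upstream processing in this list was not tested.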
